A study of Mus musculus with 6 samples.

Results

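Chaperones, the chaperonin and the folding machinery of the endoplasmic reticulum (ER) were examined as a set of 46 genes in mouse peritoneal macrophages given the MEK inhibitor trametinib before lipopolysaccharide (LPS). The members were named genes, matched by Ensembl identifier to GENCODE symbols, and a member was used if it had 60 or more counts summed over the 6 libraries. All 46 of 46 met that minimum, the lowest being Pfdn4 with 580 counts, and all were among the 11286 genes tested of 25044 in the table. They were divided by compartment and role into 12 genes of the cytosolic chaperonin TRiC and its partner prefoldin, 14 cytosolic heat shock genes, 5 mitochondrial chaperone genes, 12 ER folding genes and 3 sensors or factors of the unfolded protein response (UPR).

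The macrophages were from 8-week-old wild-type C57BL/6 mice, washed from the peritoneum 3 days after intraperitoneal thioglycollate, an irritant that recruits monocyte-derived macrophages. Cells that adhered were cultured for 24 h and received 100 nM trametinib or its vehicle, DMSO. After 2 h both groups received 100 ng/ml of LPS, which activates Toll-like receptor 4, and were kept for another 12 h. Each group, trametinib + LPS and vehicle + LPS, gave 3 libraries. No culture without LPS was given, so what LPS itself did to these genes cannot be read from the comparison, and the labels give 3 mice for the study without tying a library to a mouse, so the p-values rest on a spread between samples that may be technical.

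Chaperones bind unfolded stretches of other proteins and, mostly at the cost of ATP, give them another chance to fold. The cytosol uses HSP70 and HSP90 with helper proteins and the barrel-shaped TRiC, mitochondria use a separate HSP70 and the HSP60 barrel for the proteins they import, and the ER uses the HSP70 relative BiP, the HSP90 relative GRP94 and disulfide isomerases for secreted and membrane proteins. In macrophages GRP94 is known for folding Toll-like receptors and integrins. The heat shock factor HSF1 induces the cytosolic genes under stress, and the UPR sensors IRE1, ATF6 and PERK adjust the ER genes.

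The libraries held 17453778 to 19648467 counts. Macrophage markers summed to 14007 to 15621 CPM (counts-per-million, a gene's count as a share of the library size, which was scaled by trimmed mean of M-values factors) in the trametinib libraries and 15140 to 16902 CPM in the vehicle libraries, and of the 7 markers Mertk was higher, Adgre1 and Itgam were lower and 4 did not pass the test. The markers of neutrophils, B cells, T and NK cells, mast cells and eosinophils, and fibroblasts and mesothelium summed to at most 10.1 CPM per list in any library; Retnlg, Mcpt4 and Msln had no count, and Igkc and Trac were not analysed here. Dusp6, a target of ERK signalling, had 0 to 0.0557 CPM in the trametinib libraries, against 14.5, 17.1 and 2.11 CPM in vehicle replicates 1, 2 and 3. In a principal component analysis the leading axis (68.8% of the variance) placed the trametinib libraries at −35.5 to −26.4 and the vehicle libraries at 39.3, 38.1 and 16.2, so that vehicle replicate 3 was set off from the other two. In bulk RNA, fewer cells of a type and less RNA per cell cannot be told apart, and CPM give a gene's share of the RNA, not its amount per cell.

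The comparison asks how blocking MEK changes the chaperone transcripts of LPS-treated macrophages. With trametinib all 5 mitochondrial chaperone genes and all 8 subunit genes of the chaperonin fell, 4 of the 12 ER folding genes rose and none fell, and the 3 UPR genes did not pass. Of the 46 members, 18 fell, 6 rose and 22 did not pass in edgeR's quasi-likelihood test (adjusted p under 0.05 over all genes tested), which is what a call means here. Over all genes tested, 34.3% passed, 18.4% lower and 15.8% higher. The median log2 fold change was −0.14 over the members and −0.01 over all genes tested. The groups did not overlap in 30 members, 20 lower and 10 higher with trametinib, where 49.3% of all genes tested had no overlap, 25.9% lower and 23.4% higher. The changes were small: only Hspa1a changed by 2-fold or more. Without vehicle replicate 3, 21 members fell and 7 rose, at 21.4% lower and 19.3% higher of all genes tested.

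**Figure D1:**
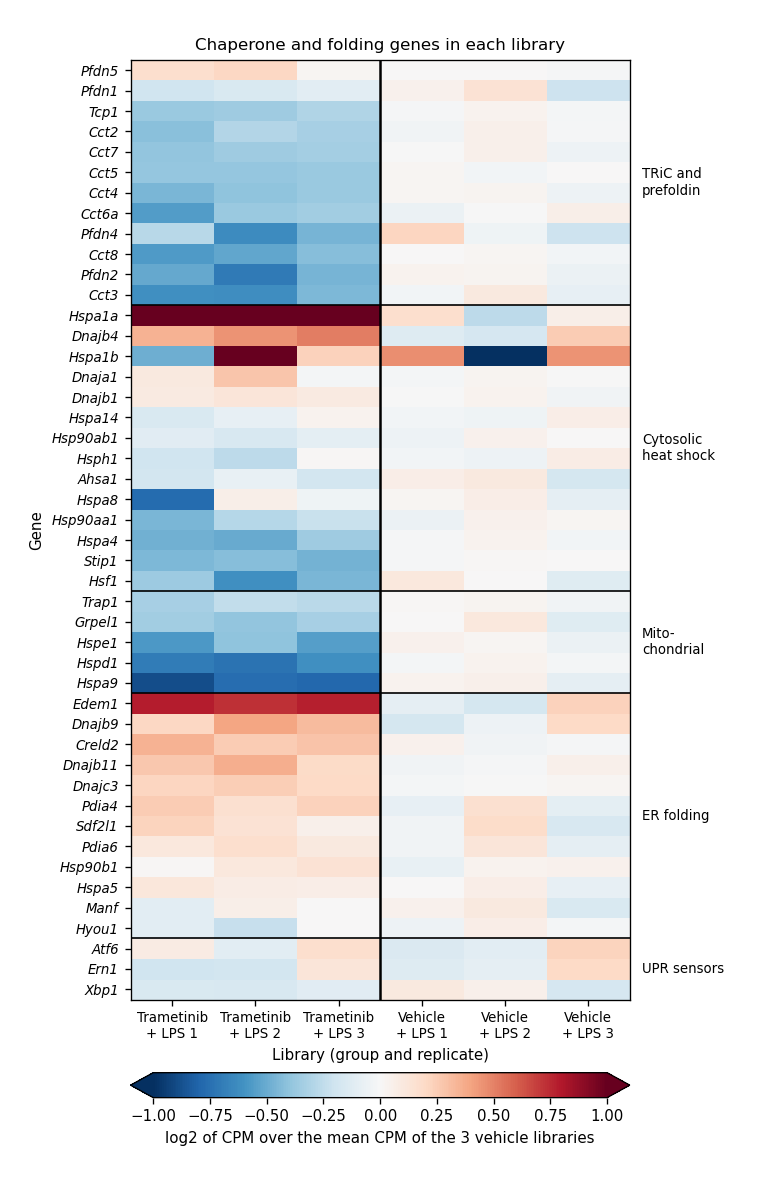
Each cell shows the log2 of a member's CPM in 1 library over the mean CPM of the 3 vehicle libraries (colour scale, cut at −1 and 1); rows are the 46 members grouped by class and columns the 6 libraries. The trametinib columns are blue throughout the TRiC subunits and the 5 mitochondrial genes and mostly red in the ER folding genes, and single dark blue cells show Hspa8 low in trametinib replicate 1 and Hspa1b low in vehicle replicate 2.

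The median log2 of CPM over the vehicle mean was −0.58, −0.40 and −0.55 for the mitochondrial genes in trametinib replicates 1, 2 and 3, against 0.01, 0.04 and −0.06 in vehicle replicates 1, 2 and 3. For TRiC and prefoldin it was −0.40, −0.38 and −0.36 with trametinib, against 0.00, 0.03 and −0.04 with vehicle. For the ER folding genes it was 0.21, 0.16 and 0.17 with trametinib, against −0.04, 0.05 and −0.01 with vehicle. In these 3 classes the groups did not overlap: the trametinib libraries were lower for the mitochondrial genes and for TRiC and prefoldin, and higher for the ER folding genes. The medians of the cytosolic heat shock genes were nearer to each other, at −0.19, −0.08 and −0.03 with trametinib and −0.01, 0.02 and 0.00 with vehicle, and did not overlap either, being lower with trametinib. The medians of the UPR sensors overlapped, at −0.15, −0.16 and 0.12 with trametinib and −0.13, −0.09 and 0.20 with vehicle, and replicate 3 was the highest of each group.

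TRiC is a double ring of 8 different subunits that encloses and folds actin, tubulin and other proteins of the cytosol. All 8 subunit genes fell, within a narrow range of 1.27-fold to 1.47-fold, and the groups did not overlap in any of them. Cct8 had 96.5, 99.6 and 106 CPM in trametinib replicates 1, 2 and 3, against 143, 145 and 140.3 CPM in the vehicle libraries (log2 fold change −0.50, standard error SE 0.07, adjusted p 0.000840). Cct3 had 93.7, 93.4 and 105.0 CPM with trametinib, against 141, 153 and 136 CPM with vehicle (log2 fold change −0.56, SE 0.08, adjusted p 0.00111). Each trametinib library was below each vehicle library for both subunits. Cct5 had 96.9, 97.3 and 98.2 CPM with trametinib, against 129, 125 and 127 CPM with vehicle, and Cct4 had 92.0, 95.8 and 97.8 CPM with trametinib, against 128, 129 and 122 CPM with vehicle. Their gaps were many times the replicate spread, which for Cct5 was 97.4 ± 0.675 CPM with trametinib and 127 ± 2.20 CPM with vehicle (SD, n = 3 each). The smallest changes in the ring were those of Tcp1, the founding subunit of the complex, at 115, 116 and 119.7 CPM with trametinib and 146, 151 and 146 CPM with vehicle (log2 fold change −0.34, adjusted p 0.00384), and Cct2 (log2 fold change −0.35, adjusted p 0.00491). Cct4, Cct5, Cct6a and Cct7 had log2 fold changes of −0.41, −0.38, −0.42 and −0.36, with adjusted p 0.00153, 0.00161, 0.00309 and 0.00331. The summed level of the 8 genes was 792, 823 and 847 CPM in the trametinib libraries, against 1085, 1119 and 1074 CPM in the vehicle libraries, and these sums did not overlap. Per exonic kilobase the subunits differed in level, with vehicle means of 78.3 (Cct7) to 212 (Cct2) TPM, counts divided by exonic length and scaled to a fixed sum per library. Exons of Cct8, Tcp1, Cct6a and Cct7 overlap exons of Usp16, Mrpl18, Psph and Pradc1 on the opposite strand, and the strand setting of the counting is not given in the sources used here.

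Prefoldin passes newly made actin and tubulin chains to TRiC, and 1 of its 4 subunit genes listed fell, where 18.4% of all genes tested were lower. Pfdn2 fell, with 14.6, 12.7 and 15.1 CPM in the trametinib libraries, against 21.3, 21.2 and 19.9 CPM in the vehicle libraries (log2 fold change −0.56, SE 0.09, adjusted p 0.00232). Pfdn4 had 5.14, 4.03 and 4.51 CPM with trametinib, against 7.24, 6.03 and 5.40 CPM with vehicle, without overlap but short of the threshold (log2 fold change −0.45, adjusted p 0.0571). It passed in the fit blocked by replicate number (adjusted p 0.0313) and without vehicle replicate 3 (0.0227). Its adjusted p lay between 0.0227 and 0.210 over all the alternatives, which were other scalings, filters and tools, the block and each library left out in turn. Of the 4 subunits listed here, Pfdn5 alone had a positive log2 fold change (0.13, adjusted p 0.156). Pfdn5 had 78.7, 81.0 and 71.3 CPM with trametinib and 70.4, 70.5 and 69.5 CPM with vehicle. Its exons overlap those of Myg1 on the same strand, which had 1250 counts over the 6 libraries. Pfdn1 overlapped between the groups (log2 fold change −0.15, adjusted p 0.318).

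**Figure D2:**
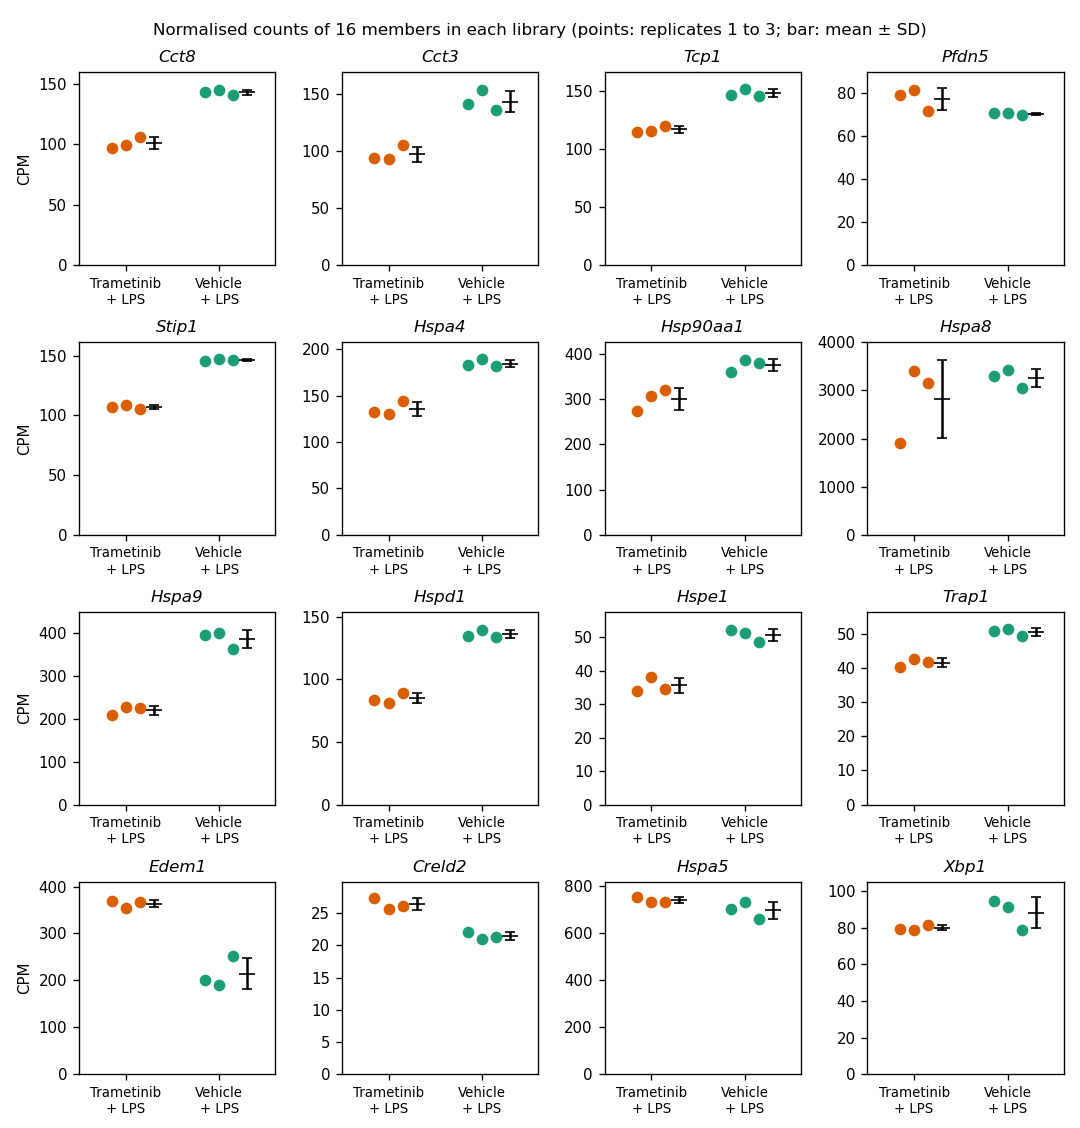
Points show the CPM of 16 members in each library (y axes, from 0) for trametinib + LPS on the left and vehicle + LPS on the right of each panel, with the group mean and SD as a bar (n = 3). The trametinib points lie below all vehicle points for Cct8, Cct3, Tcp1, Stip1, Hspa4, Hsp90aa1 and the 4 mitochondrial genes, above them for Edem1 and Creld2, and by under 1 CPM for Pfdn5 and Hspa5, and overlap them for Hspa8 and Xbp1.

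The cytosolic HSP90 and HSP70 genes held the most abundant members. Of the 14 cytosolic heat shock genes 4 fell, 2 rose and 8 did not pass, with a median log2 fold change of −0.13. The shares over all genes tested were 18.4% lower and 15.8% higher. Hspa8, the constitutive HSP70, was the most abundant member per length, at 2686 ± 42.2 TPM in the vehicle libraries, followed by Hsp90ab1, the constitutive HSP90, at 2097 ± 117 TPM (SD, n = 3). Hspa8 had 1909.8, 3402 and 3158 CPM in trametinib replicates 1, 2 and 3, against 3303, 3416 and 3060.0 CPM in the vehicle libraries. Trametinib replicate 1 alone was low, and the other trametinib libraries lay within the vehicle range. The log2 fold change of Hspa8 was −0.21 (SE 0.21, adjusted p 0.477), and 0.01 without trametinib replicate 1. The constitutive Hsp90ab1 had 1635, 1583 and 1651 CPM with trametinib, against 1708, 1828 and 1779 CPM with vehicle, a gap that missed the threshold (log2 fold change −0.13, adjusted p 0.184).

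The 4 cytosolic members that fell were Stip1, Hspa4, Hsf1 and Hsp90aa1. Stip1, the adaptor that brings HSP70 and HSP90 together, had 108, 109 and 105 CPM in the trametinib libraries, against 145, 147 and 147 CPM in the vehicle libraries (log2 fold change −0.45, SE 0.06, adjusted p 0.000982). Hspa4, an HSP110-type nucleotide exchange factor of HSP70, had 132, 130.0 and 144 CPM with trametinib, against 183, 189 and 181 CPM with vehicle (log2 fold change −0.45, adjusted p 0.00214). Hsf1, the transcription factor of the heat shock response, had 16.5, 13.9 and 15.4 CPM with trametinib, against 22.8, 21.3 and 19.5 CPM with vehicle (log2 fold change −0.47, SE 0.10, adjusted p 0.00678). In all 3 genes each trametinib library was below each vehicle library. Hsp90aa1, the stress-inducible HSP90, had 273, 307 and 321 CPM with trametinib, against 360.0, 386 and 379 CPM with vehicle (log2 fold change −0.32, adjusted p 0.0181). Its call ended without trametinib replicate 1 (adjusted p 0.0849) and without vehicle replicate 2 (0.0690), with a range over the alternatives of 0.00359 to 0.0849. Hsph1, another HSP110, and Ahsa1, which stimulates the HSP90 ATPase, had log2 fold changes of −0.14 and −0.15, with adjusted p 0.225 and 0.198. Ahsa1 passed without vehicle replicate 3 (log2 fold change −0.23, adjusted p 0.0118, with all alternatives between 0.0118 and 0.479). Hspa14, a ribosome-associated HSP70 relative, was at 20.7 ± 1.40 CPM with trametinib and 21.6 ± 0.913 CPM with vehicle (log2 fold change −0.06, adjusted p 0.584). The groups overlapped for Hsph1, Ahsa1 and Hspa14.

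The 2 cytosolic members that rose were the stress-inducible Hspa1a and the HSP40 gene Dnajb4. Hspa1a had 15.2, 12.8 and 9.86 CPM in trametinib replicates 1, 2 and 3, against 4.94, 3.68 and 4.59 CPM in the vehicle libraries, and rose 2.86-fold (log2 fold change 1.52, SE 0.18, adjusted p 0.000624). Its neighbour Hspa1b had 15.2, 50.9 and 25.0 CPM with trametinib, against 29.4, 5.52 and 29.1 CPM with vehicle. The values of Hspa1b scattered within each group and missed the threshold (log2 fold change 0.51, SE 0.79, adjusted p 0.659). The genes lie on mm10 chromosome 17 at 34969190 to 34972156 and 34956436 to 34959238, and their longest reading frames were identical at 98.0% of positions, so reads may be divided between them. When their counts were summed, a choice made after seeing the data, the pair had 30.4, 63.7 and 34.9 CPM with trametinib, against 34.3, 9.21 and 33.7 CPM with vehicle, and the call was lost (log2 fold change 0.74, adjusted p 0.389). Over the alternatives for Hspa1a, the adjusted p ran from 2.14e-10 to 0.389. Among HSP40 genes, which deliver clients to HSP70, Dnajb4 rose, at 24.2, 26.0 and 27.2 CPM with trametinib, against 17.4, 16.96 and 22.7 CPM with vehicle (log2 fold change 0.44, adjusted p 0.0214). The Dnajb4 call ended without trametinib replicates 2 and 3 (adjusted p 0.0674 and 0.0607) and without vehicle replicates 1 and 2 (0.0800 and 0.0781), with all alternatives between 0.000549 and 0.0800. Dnajb1, a main partner of inducible HSP70, and Dnaja1 had log2 fold changes of 0.10 and 0.12, with adjusted p 0.256 and 0.293, with Dnajb1 at 44.0 ± 0.520 CPM with trametinib and 41.0 ± 1.05 CPM with vehicle. Exons of Dnaja1 overlap those of Smu1 on the opposite strand.

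**Figure D3:**
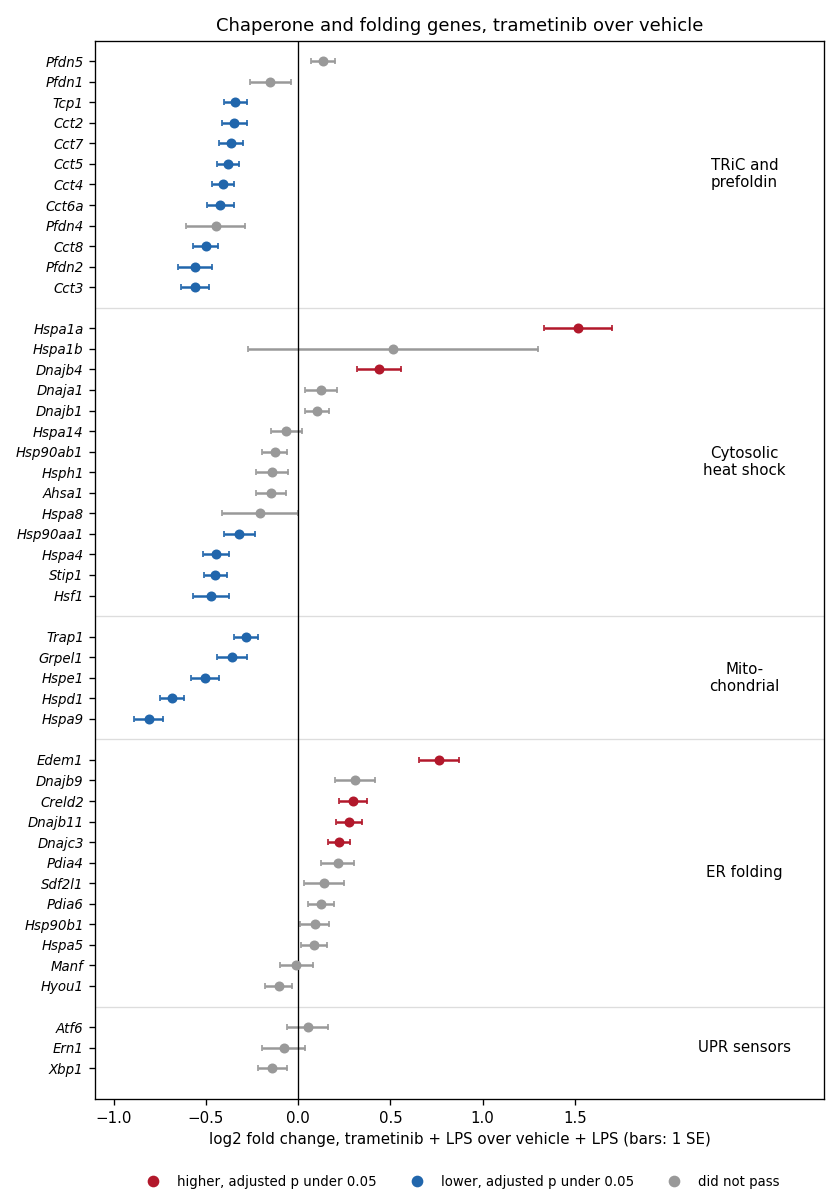
Points give the log2 fold change of each of the 46 members (x axis, trametinib + LPS over vehicle + LPS) with 1 SE as a bar, grouped by class; red and blue mark members with an adjusted p under 0.05. The blue points fill the TRiC ring and the mitochondrial class down to Hspa9 at −0.81, the red points lie in the ER folding class and at Hspa1a and Dnajb4, and Hspa1b has the widest bar (SE 0.79).

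The mitochondrial chaperones had the lowest median of the 5 classes, a log2 fold change of −0.51. All 5 genes fell, and none overlapped between the groups. Hspa9, the mitochondrial HSP70 (mortalin) that pulls proteins into the matrix and folds them there, had 209, 228 and 225 CPM in the trametinib libraries, against 397, 401 and 364 CPM in the vehicle libraries (log2 fold change −0.81, SE 0.08, adjusted p 0.000319). Hspd1, the HSP60 barrel, had 83.7, 81.4 and 89.2 CPM with trametinib, against 134, 139.7 and 134 CPM with vehicle (log2 fold change −0.68, SE 0.06, adjusted p 0.000273). These were the lowest fold changes of the 46 members, at 1.75-fold and 1.61-fold lower. Hspe1, the HSP10 lid of the HSP60 barrel, had 33.9, 38.3 and 34.6 CPM with trametinib, against 52.0, 51.2 and 48.6 CPM with vehicle (log2 fold change −0.51, adjusted p 0.00142). Grpel1, the nucleotide exchange factor of mortalin, had 26.0, 25.3 and 26.3 CPM with trametinib, against 33.3, 35.8 and 30.5 CPM with vehicle (log2 fold change −0.36, adjusted p 0.0100). Trap1, the mitochondrial HSP90, moved least, at 40.1, 42.6 and 41.8 CPM with trametinib and 50.9, 51.4 and 49.3 CPM with vehicle (log2 fold change −0.28, adjusted p 0.0102), and it alone lost its call when a library was left out (adjusted p 0.0562 without trametinib replicate 1, with all alternatives between 0.00757 and 0.0562). Exons of Grpel1 overlap those of Tada2b on the opposite strand.

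Hspd1 and Hspe1 lie head to head on mm10 chromosome 1, Hspd1 at 55077835 to 55088243 on the minus strand and Hspe1 at 55088132 to 55091307 on the plus strand, so their first exons overlap and reads there cannot be told apart without strand. The ratio of Hspd1 to Hspe1 counts was 2.47, 2.13 and 2.57 in the trametinib libraries, against 2.58, 2.73 and 2.76 in the vehicle libraries, without overlap but by a small margin. A promoter stretch lies within the Hspd1 gene and upstream of Hspe1, and is shown because it falls in RefSeq promoter windows of both genes (250 bases before to 50 after a start), for Hspd1 in 1 of its 2 windows. It is given on the plus strand, reading toward Hspe1, from RefSeq on GRCm38.p6, chr1:55088039-55088096, and the capitals mark 2 overlapping matches to the heat shock element, searched on both strands as GAANNTTCNNGAA.
Hspe1: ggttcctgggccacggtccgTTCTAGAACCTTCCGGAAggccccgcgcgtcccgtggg
The motif was present in 179 of 27025 genes with a promoter (0.662%). Promoters were given for 36 of the 46 members, and 3 of these held it, Hspd1, Hspe1 and the cytosolic Hsph1. A match describes the letters only.

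Of the 12 ER folding genes 4 rose, none fell and 8 missed the threshold, while 10 had a positive log2 fold change, with a median of 0.18. Edem1, a lectin-like protein that hands misfolded glycoproteins to ER-associated degradation, moved most and had 369, 355 and 367 CPM in the trametinib libraries, against 201, 190.1 and 252 CPM in the vehicle libraries (log2 fold change 0.76, SE 0.11, adjusted p 0.00122). The groups were far apart, with vehicle replicate 3 the nearest to the trametinib libraries. Its call held with each library left out in turn.

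The other 3 genes that rose changed by 1.17-fold to 1.23-fold. Creld2, an ER-resident disulfide isomerase-like protein, had 27.4, 25.6 and 26.2 CPM with trametinib, against 22.2, 20.9 and 21.3 CPM with vehicle (log2 fold change 0.30, adjusted p 0.0148). Dnajb11, an HSP40 partner of BiP, had 152, 163 and 144 CPM with trametinib, against 123, 125 and 131 CPM with vehicle (log2 fold change 0.28, adjusted p 0.0179). Dnajc3, an HSP40 partner of BiP also known as an inhibitor of PERK, had 65.5, 66.9 and 64.9 CPM with trametinib, against 55.8, 56.4 and 57.1 CPM with vehicle (log2 fold change 0.22, adjusted p 0.0199). The groups did not overlap in any of these genes, but each call was lost when some libraries were left out. Creld2 lost it without trametinib replicate 1 (adjusted p 0.0632) and vehicle replicate 2 (0.0614), with all alternatives between 0.0121 and 0.0632. Dnajb11 lost it without trametinib replicates 1 and 2 (0.0634 and 0.0641) and vehicle replicates 1 and 2 (0.0768 and 0.0679), with all alternatives between 0.00896 and 0.0768. Dnajc3 lost it without trametinib replicates 1 and 2 (0.0729 and 0.0621) and vehicle replicates 1 and 2 (0.0853 and 0.0736), with all alternatives between 0.0160 and 0.0853. Without trametinib replicate 1, 1 ER folding gene rose, and without trametinib replicate 2, vehicle replicate 1 or vehicle replicate 2, 2 did. Calls fell over all genes too, with 9.33% of those tested higher without trametinib replicate 1, against 15.8% with all 6 libraries. The share was 10.5, 9.89 and 10.2% without trametinib replicate 2, vehicle replicate 1 and vehicle replicate 2.

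The master chaperones of the ER did not pass. Hspa5 (BiP), the ER HSP70, had 754, 734 and 731 CPM in the trametinib libraries, against 701, 731 and 659.9 CPM in the vehicle libraries (log2 fold change 0.09, SE 0.07, adjusted p 0.392). Hsp90b1 (GRP94) had 242, 259 and 266 CPM with trametinib, against 228, 246 and 247 CPM with vehicle (log2 fold change 0.09, adjusted p 0.405). For Hspa5 the trametinib libraries were above the vehicle libraries by less than 1 CPM at the nearest, and for Hsp90b1 the groups overlapped. Hyou1 (GRP170), which exchanges nucleotide on BiP, was the one ER gene with a log2 fold change under −0.1, at 82.6, 75.9 and 89.0 CPM with trametinib and 85.6, 93.0 and 87.9 CPM with vehicle (−0.11, adjusted p 0.300). Dnajb9 (ERdj4), a BiP partner that is a target of the IRE1 branch, had 24.8, 28.3 and 26.8 CPM with trametinib, against 19.0, 20.8 and 24.7 CPM with vehicle, without overlap (log2 fold change 0.31, adjusted p 0.0557). It passed with DESeq2 size factors (0.0469), with no filter on low counts (0.0381), with the replicate block (0.0252) and without vehicle replicate 3 (0.00445), with all alternatives between 0.00445 and 0.180. Sdf2l1, which supports ER HSP70 cycling, had 19.3, 18.3 and 17.2 CPM with trametinib, against 16.2, 18.8 and 14.8 CPM with vehicle (log2 fold change 0.14, adjusted p 0.340), and its groups overlapped. Of the disulfide isomerases, Pdia4 and Pdia6 had log2 fold changes of 0.21 and 0.12, with adjusted p 0.0923 and 0.216, and Pdia4 passed without vehicle replicate 2 (0.0404, with all alternatives between 0.0404 and 0.254). Manf, a secreted ER stress protein, showed a log2 fold change of −0.01 (adjusted p 0.942), and its exons overlap those of Rbm15b and Dcaf1.

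The promoters of 5 ER folding genes are shown because they carry the ER stress response element, which no promoter given of the other 4 classes held. The element was searched on both strands as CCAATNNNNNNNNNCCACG, and 37 of 27025 genes with a promoter (0.137%) held it, against 5 of the 10 ER folding genes with one. The sequences are from RefSeq on GRCm38.p6, read along the gene's strand, and the capitals mark the element, which in Creld2 and in the copy of Hsp90b1 nearer the start reads in reverse (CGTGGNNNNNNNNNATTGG). They lie at chr2:34772005-34772063 on the plus strand for Hspa5, chr10:86705513-86705676 on the minus strand for Hsp90b1, chr12:17266471-17266529 on the plus strand for Pdia6, chr15:88819500-88819558 on the plus strand for Creld2 and chr14:118937807-118937865 on the plus strand for Dnajc3.
Hspa5: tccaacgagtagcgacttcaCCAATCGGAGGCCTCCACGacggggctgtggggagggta
Hsp90b1: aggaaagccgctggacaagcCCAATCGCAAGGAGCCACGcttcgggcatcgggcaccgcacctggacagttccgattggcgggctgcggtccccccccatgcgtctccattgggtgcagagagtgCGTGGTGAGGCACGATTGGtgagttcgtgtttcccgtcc
Pdia6: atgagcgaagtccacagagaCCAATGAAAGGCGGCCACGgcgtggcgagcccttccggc
Creld2: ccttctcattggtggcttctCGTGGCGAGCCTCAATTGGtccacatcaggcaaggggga
Dnajc3: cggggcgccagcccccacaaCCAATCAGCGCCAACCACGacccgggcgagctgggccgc
Of the 5 genes, Creld2 and Dnajc3 rose and Hspa5, Hsp90b1 and Pdia6 did not pass. The ATF4 element TGATGCAA (1.03% of all promoters) was in no member's promoter, the UPR element, searched as TGACGTGG or TGACGTGA (1.22%), was in that of Hspa5, and the E-box CACGTG (8.09%) was in those of Dnajb9, Hspd1 and Hsph1, each searched on both strands.

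The 3 UPR genes did not pass. Xbp1, the transcription factor whose mRNA IRE1 splices, had 79.5, 79.0 and 81.5 CPM in the trametinib libraries, against 94.5, 91.2 and 78.6 CPM in the vehicle libraries (log2 fold change −0.14, adjusted p 0.197). Vehicle replicate 3 lay at the trametinib level, and without it Xbp1 passed (log2 fold change −0.22, adjusted p 0.0124, with all alternatives between 0.0124 and 0.517). Counts per gene do not show the spliced form. Ern1, which encodes IRE1, had 85.2, 85.9 and 106 CPM with trametinib and 89.5, 91.5 and 112 CPM with vehicle (log2 fold change −0.08, adjusted p 0.627). Atf6, the sensor that is cleaved in the Golgi, had 140.4, 124 and 149 CPM with trametinib and 120.4, 124 and 155 CPM with vehicle (log2 fold change 0.05, adjusted p 0.760). For Ern1 and Atf6 replicate 3 was the highest library of each group, and the groups overlapped.

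Ratios within a library set one compartment against another without depending on how libraries are scaled. The ratio of Hspa9 to Hspa5 counts, the mitochondrial over the ER HSP70, was 0.277, 0.311 and 0.308 in the trametinib libraries, against 0.567, 0.548 and 0.551 in the vehicle libraries. The 5 mitochondrial genes over the 12 ER folding genes gave 0.207, 0.220 and 0.220 with trametinib, against 0.418, 0.407 and 0.383 with vehicle. The 8 TRiC subunits over the ER folding genes gave 0.418, 0.435 and 0.447 with trametinib, against 0.679, 0.672 and 0.657 with vehicle. The ER sums include the degradation gene Edem1, which averaged 363 CPM with trametinib and 214 CPM with vehicle. Ratios without Edem1 were not computed. In all 3 ratios the groups did not overlap, and with 3 libraries against 3 an exact permutation test cannot give a two-sided p below 0.1. The ratio of Hspa8 to Hspa5 was 2.53, 4.64 and 4.32 with trametinib and 4.72, 4.67 and 4.64 with vehicle, low in trametinib replicate 1. Within HSP90, the ratio of the inducible Hsp90aa1 to the constitutive Hsp90ab1 was 0.167, 0.194 and 0.194 with trametinib, against 0.211, 0.211 and 0.213 with vehicle, also without overlap. A ratio shows unequal change and not which side moved.

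**Figure D4:**
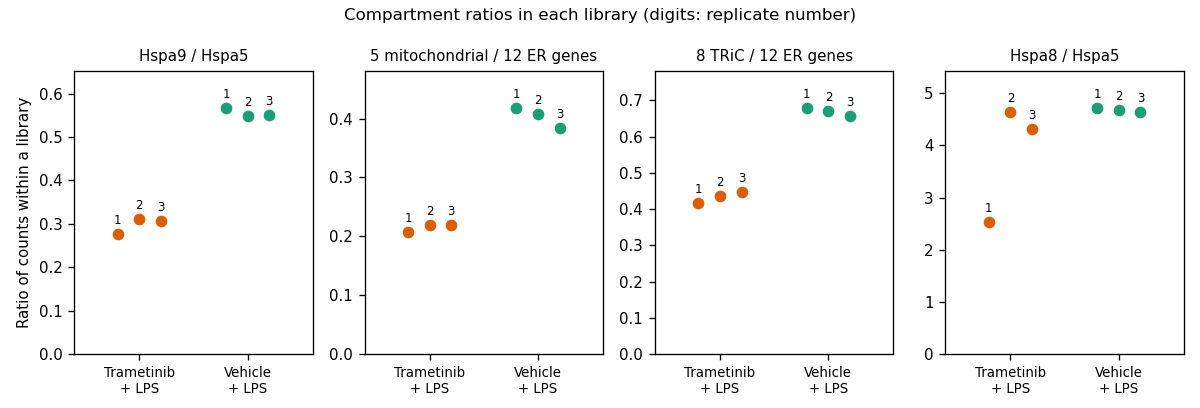
Points give the ratio of counts of 2 genes or gene groups in each library (y axes, from 0, digits naming the replicate), with trametinib + LPS left of vehicle + LPS. The first 3 panels keep the groups apart, with Hspa9 over Hspa5 at 0.277 to 0.311 in the trametinib libraries and 0.548 to 0.567 in the vehicle libraries, and the Hspa8 panel shows trametinib replicate 1 at 2.53 below the other 5 libraries.

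Other genes of the same pathways were counted beside the members. Over all genes tested, 18.4% were lower and 15.8% higher. Of 17 other mitochondrial folding and protease genes 9 fell, 0 rose and 8 did not pass, with a median log2 fold change of −0.31. Dnaja3, an HSP40 partner of mortalin, averaged 24.5 ± 0.448 CPM with trametinib and 37.1 ± 1.90 CPM with vehicle (SD, n = 3 each, log2 fold change −0.60, adjusted p 0.000692). The prohibitins Phb and Phb2, which form a ring in the inner membrane, had log2 fold changes of −0.66 and −0.67, with adjusted p 0.00115 and 0.000875, and Htra2, a protease of the intermembrane space, −0.54 (adjusted p 0.000817). Of 25 other ER folding genes tested, 8 rose, 1 fell and 16 did not pass, with a median of 0.15. Calr (calreticulin), which holds newly made glycoproteins for folding, had 517 ± 12.7 CPM with trametinib and 405 ± 25.3 CPM with vehicle (log2 fold change 0.35, adjusted p 0.00809). Ero1lb, an oxidase that recharges disulfide isomerases, showed a log2 fold change of 0.52 (adjusted p 0.00331). Cnpy3, the GRP94 partner for Toll-like receptors, averaged 76.8 ± 5.61 CPM with trametinib and 60.9 ± 3.27 CPM with vehicle (log2 fold change 0.33, adjusted p 0.00985).

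Genes of degradation and of the integrated stress response held calls in both directions. Of 20 ER-associated degradation and translocation genes tested, 4 fell, 2 rose and 14 did not pass. These counts were near the shares over all genes tested, 18.4% lower and 15.8% higher. Herpud1, a scaffold of the degradation complex, showed a log2 fold change of −0.50 (adjusted p 0.00205), and Erlec1, a lectin of the same pathway, 0.48 (adjusted p 0.00446). Of 17 other UPR and integrated stress response genes tested, 5 fell, 1 rose and 11 did not pass. Asns, the asparagine synthetase that ATF4 induces, averaged 42.8 ± 0.890 CPM with trametinib and 106 ± 8.91 CPM with vehicle (log2 fold change −1.32, adjusted p 9.8e-05). Chac1, a glutathione-degrading enzyme and ATF4 target, averaged 3.30 ± 0.535 CPM with trametinib and 10.2 ± 1.36 CPM with vehicle (log2 fold change −1.62, adjusted p 0.000362). Trib3, a pseudokinase and ATF4 target, showed a log2 fold change of −0.98 (adjusted p 0.000965). Atf4, which encodes the factor itself, showed a log2 fold change of −0.46 (adjusted p 0.00527). The genes named so far in each of these lists are those with the smallest p. In the last list, Creb3l2 was the gene that rose (log2 fold change 0.44, adjusted p 0.0174). Ddit3, Ppp1r15a and Nupr1 did not pass (log2 fold change 0.11, 0.22 and 0.11, adjusted p 0.437, 0.117 and 0.387). Of the 17 genes tested, 10 had a negative log2 fold change and 7 a positive one.

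Of 13 other TRiC, prefoldin and tubulin or actin folding genes tested, 2 fell, 0 rose and 11 did not pass, the 2 being the prefoldin subunit Pfdn6 (log2 fold change −0.38, adjusted p 0.0143) and the tubulin cofactor Tbcd (−0.27, adjusted p 0.0161). Vbp1, another prefoldin subunit in that list, had a positive log2 fold change and did not pass (0.19, adjusted p 0.263). Of 26 other cytosolic chaperones and co-chaperones tested, 4 fell, 3 rose and 19 did not pass, with a median of −0.02. Over all genes tested, 18.4% were lower and 15.8% higher. The HSP90 co-chaperones Fkbp4 and Ptges3 had log2 fold changes of −0.40 and −0.31, with adjusted p 0.00486 and 0.00774, Stub1, a ubiquitin ligase that binds HSP70, −0.39 (0.0171), and Dnajb6, an HSP40 that holds back aggregation, 0.58 (0.0116). The remaining calls were Chordc1, which fell (−0.23, adjusted p 0.0254), and Unc45a and Hspa4l, which rose (0.32 and 0.84, adjusted p 0.0284 and 0.0413). Of 6 growth-related genes listed with MYC, 3 fell, none rose and 3 missed the threshold. The nucleolar genes Nop56, Nop58 and Ncl fell (log2 fold change −1.02, −1.05 and −0.35; adjusted p 0.000290, 0.00115 and 0.00666), while the nucleolar genes Npm1 and Fbl (log2 fold change −0.05 and −0.08; adjusted p 0.645 and 0.913) and Myc itself (−1.37, SE 0.74, adjusted p 0.194) did not pass. Myc was near the floor, with 12, 2 and 6 counts in the trametinib libraries and 19, 29 and 5 in the vehicle libraries.

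**Figure D5:**
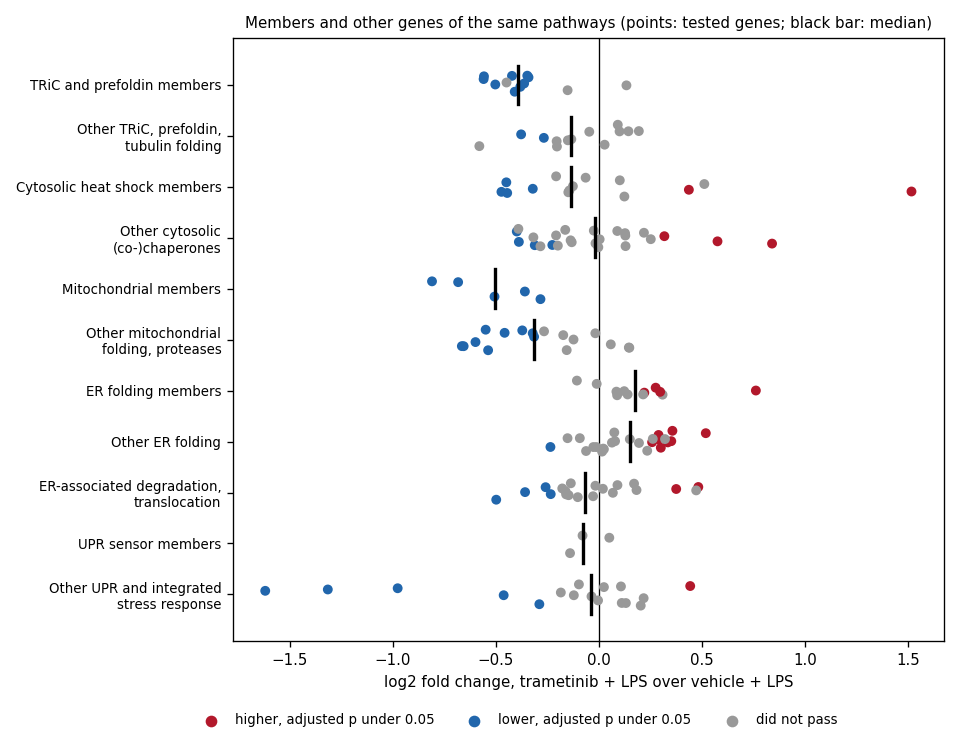
Each point is the log2 fold change of a tested gene (x axis, trametinib + LPS over vehicle + LPS), in rows for the 5 member classes and the other genes of the same pathways; black bars mark medians, and colours mark adjusted p under 0.05. The 5 mitochondrial members lie left of 0 (median −0.51), as do 14 of the 17 other mitochondrial genes (median −0.31), and the ER folding rows lie mostly right of it (0.18 and 0.15), while Chac1, Asns and Trib3 are the 3 leftmost points of the last row.

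Per exonic kilobase, the vehicle level ran from 5.28 TPM for Hspa1a to 2686 TPM for Hspa8. The 5 members highest by TPM in the vehicle libraries were Hspa8, Hsp90ab1, Hspa5, Hsp90aa1 and Hspa9, of which 2 fell and 3 did not pass. The share that passed over all genes tested was 34.3%, so this count does not set the abundant members apart. Together the 46 members took 0.763, 0.902 and 0.967% of all counts in trametinib replicates 1, 2 and 3, against 0.995, 1.03 and 1.03% in vehicle replicates 1, 2 and 3. The trametinib libraries were each below the vehicle libraries, replicate 1 most. In trametinib replicate 1 Hspa8 was low, and the cytosolic heat shock genes summed to 4470 CPM. Their sum was 5999 and 5798 CPM in trametinib replicates 2 and 3. The share of mitochondrially encoded counts, beside the nuclear mitochondrial chaperones, was 0.763, 1.76 and 0.840% with trametinib and 0.717, 0.871 and 0.796% with vehicle, highest in trametinib replicate 2; its part in the results was not tested.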

How the data were processed

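RNA depleted of ribosomal RNA was sequenced from 3 libraries of trametinib + LPS and 3 of vehicle + LPS. The deposited file holds raw counts of reads per gene, not normalised by the authors. The submitters' processing notes name HISAT2 2.1.0, featureCounts 1.6.4, DESeq2 1.24.0, R 3.6.0 and the mouse build mm10; the sources used here do not state the annotation, the strand setting or the handling of multi-mapping reads. Of 25354 entries, 310 were repeats of 205 identifiers with identical values and were dropped, leaving 25044 genes, 25033 of them in GENCODE M21.

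Genes passing filterByExpr (11286) were tested with edgeR 4.0.16 in R 4.3.3 (trimmed mean of M-values factors, robust quasi-likelihood test, no term but group, with 4 residual degrees of freedom), with Benjamini-Hochberg adjustment over all of them. The pipeline was tested on simulated data. CPM used the scaled library sizes, and TPM the exonic length of each gene. Alternatives were DESeq2 1.42.0, limma 3.58.1 (voom), other scalings and filters, a replicate block and leaving out each library. Tables, motif searches and figures used Python 3.11.15. Replicates of a group differed beyond sampling noise (chi-square per gene 4.93 to 21.8), so none was counted as a repeat of another. This measure cannot tell separate mice from separate libraries of the same cells, so it does not show that the replicates are independent.

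The groups share replicate numbers. Same-numbered libraries deviated together from their group means, with correlations across genes of 0.339, 0.393 and 0.285, against −0.223 to −0.0724 for other pairs. The numbers thus seem to link the libraries, but the labels do not state a pairing, and what linked libraries share is not known. The main calls come from the fit without this link. With the replicate number as a block, 19 members fell and 7 rose, at 22.4% lower and 20.5% higher of all genes tested.

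The members and the gene lists were chosen with earlier results of these data known. Values per library were given for the members of each class with the smallest adjusted p or the largest fold change and for a list of central chaperones, and of each other list up to 4 genes with the smallest p were named. In some of those lists further genes were named, among them genes that did not pass.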

Additional observations from a re-analysis of the deposited data

How the results depend on the processing

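All 24 members that passed kept their call and direction under the 7 alternatives that used every library: DESeq2 size factors, scaling without the 10 most abundant and the mitochondrially encoded genes, no filter on low counts, at least 1 CPM in 3 libraries, DESeq2, limma-voom and the replicate block. The block changed 2 calls among the 46, adding Pfdn4 and Dnajb9. With each library left out in turn, 3 to 7 members rose and 16 to 21 fell, 1 to 2 cytosolic members rose and 3 to 5 fell, 1 to 5 ER folding members rose, 9 to 10 TRiC and prefoldin members and 4 to 5 mitochondrial members fell, and 0 to 1 UPR member fell. Over all genes tested, these fits called 9.33 to 19.3% higher and 11.9 to 21.4% lower, against 15.8% and 18.4% with all 6 libraries. No called member reversed. Of genes that did not pass, the log2 fold change crossed 0 with a library left out for Hspa8 (−0.36 to 0.010), Hspa1b (−0.080 to 0.83), Manf (−0.083 to 0.042), Atf6 (−0.015 to 0.17) and Ern1 (−0.19 to 0.030), and for Manf also with DESeq2 size factors (0.00054) and the 1 CPM filter (1.7e-05). The cause was not tested. Summing Hspa1a with Hspa1b ended the call of Hspa1a (log2 fold change 0.74, adjusted p 0.389). Over all genes tested, leaving out a library gave 2428 to 4663 calls, against 3869 with all 6. With 3 libraries a group and no link to mice, small changes such as those of the ER genes rest on few samples.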
